A study of Homo sapiens with 12 samples.

Results

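The genes described here are those of 2 families of contact and guidance signals, the Eph receptors with their ephrin ligands and the plexin and neuropilin receptors with their semaphorin ligands. They were chosen by name among the protein-coding genes of the table: EPHA, EPHB, EFNA or EFNB followed by digits, any name that starts with SEMA or PLXN, and NRP1 and NRP2. The rule found 53 of 60504 features: 14 Eph receptors, 8 ephrins, 20 semaphorins, 9 plexins and 2 neuropilins. No measured value entered the choice.

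Eph receptors are receptor tyrosine kinases that bind ephrins held in the membrane of a neighbouring cell. A-class ephrins are anchored by a lipid and B-class ephrins span the membrane, and both partners can signal into their own cell, which changes adhesion, repulsion and the actin skeleton. Semaphorins are secreted, membrane-spanning or lipid-anchored ligands. Their receptors are the plexins, and the class 3 semaphorins mostly need a neuropilin as co-receptor. Both families are best known from axon guidance and vessel growth, and lymphoid cells use several of their members.

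Poly(A) RNA was sequenced from 4 groups of TKO cells, which derive from KMS-11, an established line of human multiple myeloma. All 12 libraries carry the cell type label plasma cell and the genotype label WHSC1(+/-), and WHSC1 is an older name of NSD2, a methyltransferase of histone H3 lysine 36. The groups were TKO cells with an expression vector for NSD2 p.D1240A (D1240A), with a vector for NSD2 p.F1295A (F1295A), with a vector for NSD2 without a substitution (WT), and with no vector (TKO), with 3 biological replicates each. No empty-vector control entered the analysis, so each comparison with TKO also compares cells that received a vector with cells that did not. The series asks how mutant NSD2 alters gene expression.

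NSD2 measured 242.3, 259.3 and 250.3 FPKM in D1240A, 171.6, 161.3 and 159.4 FPKM in F1295A and 189.1, 187.6 and 194.9 FPKM in WT, against 58.9, 58.6 and 62.7 FPKM in TKO. FPKM scale fragment numbers by transcript length and by the library's total, so levels can be compared between genes of different length. Of 10 plasma cell markers, 6 reached 1 FPKM in every library, among them JCHAIN, XBP1 and IRF4, while SDC1 averaged 0.278 FPKM in D1240A, 0.25 in F1295A and 0.235 in WT, against 4.01 in TKO. D1240A replicate 2 stood apart, with ribosomal RNA at 51.4% of its summed FPKM, against 0.133% to 0.995% in the others. Its log2 scaling factor was -0.30, against -0.00 to 0.06 elsewhere, and 1 fragment in short genes was worth 0.18 FPKM in it, against 0.09 to 0.14, so it was the shallowest for other genes. Without rescaling, the median log2 difference of all genes moved by -0.14 in D1240A against TKO and by -0.11 in D1240A against WT, and results below are relative to the rescaled centre. Higher calls were then 29.4%, 15.5% and 19.1% of the calls of all genes in D1240A against TKO, D1240A against WT and F1295A against WT, where the rescaled values gave 52.4%, 42.9% and 33.1%.

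Of the 53 genes, 31 reached 0.5 FPKM in at least 3 libraries and were tested among 14391 genes: 5 Eph receptors, 5 ephrins, 13 semaphorins, 7 plexins and 1 neuropilin. The other 22 were not tested. Among the 31, 21 were called in at least 1 of the 6 pairs of groups, at a Benjamini-Hochberg adjusted p under 0.05 in limma. That is 67.7% of them, where 62.7% of all tested genes were called in at least 1 pair, so the count is near the background. Changes are differences of log2(FPKM + 0.5), which understates the change of genes at low FPKM. The plot of levels in each library shows all 31.

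**Figure D1:**
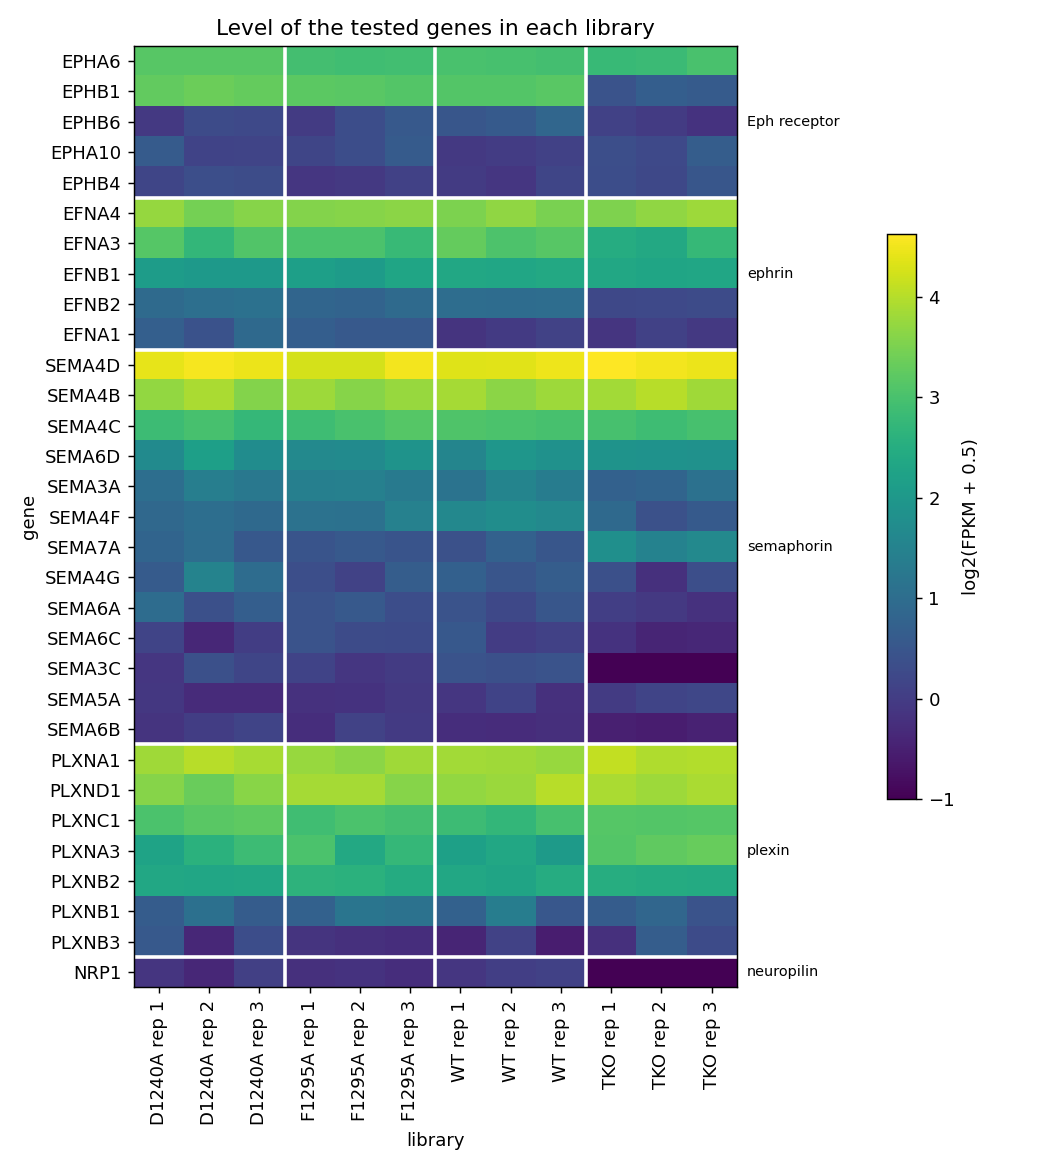
Level of the 31 tested genes as log2(FPKM + 0.5) (colour) in each of the 12 libraries (columns, by group), with rows ordered by family and by mean level. SEMA4D is the brightest row in every library, the EPHB1 row is dark in the TKO libraries only, and SEMA3C and NRP1 are at the bottom of the scale in TKO.

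In level, SEMA4D led. This transmembrane semaphorin, known on lymphocytes as CD100 and a ligand of PLXNB1, measured 18.7 to 24.1 FPKM over the 12 libraries, above every library of every other gene of the 53. Next came PLXNA1 with a mean of 14.1 FPKM, SEMA4B with 13.3, PLXND1 with 13.1 and EFNA4 with 11.7, and the ranges of these neighbours overlapped. PLXNC1, EPHA6, SEMA4C, EFNA3, EPHB1 and PLXNA3 averaged between 6.20 and 7.67 FPKM, again with overlapping ranges. PLXNB2, EFNB1 and SEMA6D averaged 4.93, 4.24 and 3.04 FPKM, and the remaining tested genes averaged 1.85 FPKM (SEMA3A) or less. The semaphorin receptors at the top were thus plexins of the A, C and D classes, while NRP1 was the lowest of the tested genes at a mean of 0.318 FPKM. EPHB1 had the widest range among the tested genes that were above 0 in every library, 11.3-fold between its lowest and highest library, against 1.28-fold for EFNA4.

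The comparison with TKO asks how the genes differ between cells with an NSD2 vector and cells with none. In D1240A, 10 of the 31 tested genes were called higher (32.3%) and 4 lower (12.9%), where 23.3% and 21.2% of all tested genes were. F1295A had 11 higher (35.5%) and 4 lower (12.9%), with 23.9% and 21.8% of all tested genes. WT had 10 higher (32.3%) and 4 lower (12.9%), with 25.9% and 23.9% of all tested genes. The medians of the 31 were 0.02, 0.05 and 0.03 in D1240A, F1295A and WT, beside 0.01, -0.00 and -0.01 for all genes. These shares lie near those of all genes, so the counts are not a result about the families, and the genes are described one by one. The 3 comparisons share the 3 TKO libraries, so a chance deviation there enters all of them. SEMA3C, NRP1, SEMA6B and SEMA6C had no TKO library at 0.5 FPKM, so they could be tested only through the vector lines. EFNA1, SEMA6A and EPHB6 had 1 TKO library at that level, and SEMA4G, SEMA5A and PLXNB3 had 2. The filter needs 3, so these genes too passed it only with vector libraries. EFNA1 also had 1 WT library at that level, so it passed only through the mutant lines. The calls of all these genes add no weight to the counts. The plot of changes relative to TKO gives the values of all 31.

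**Figure D2:**
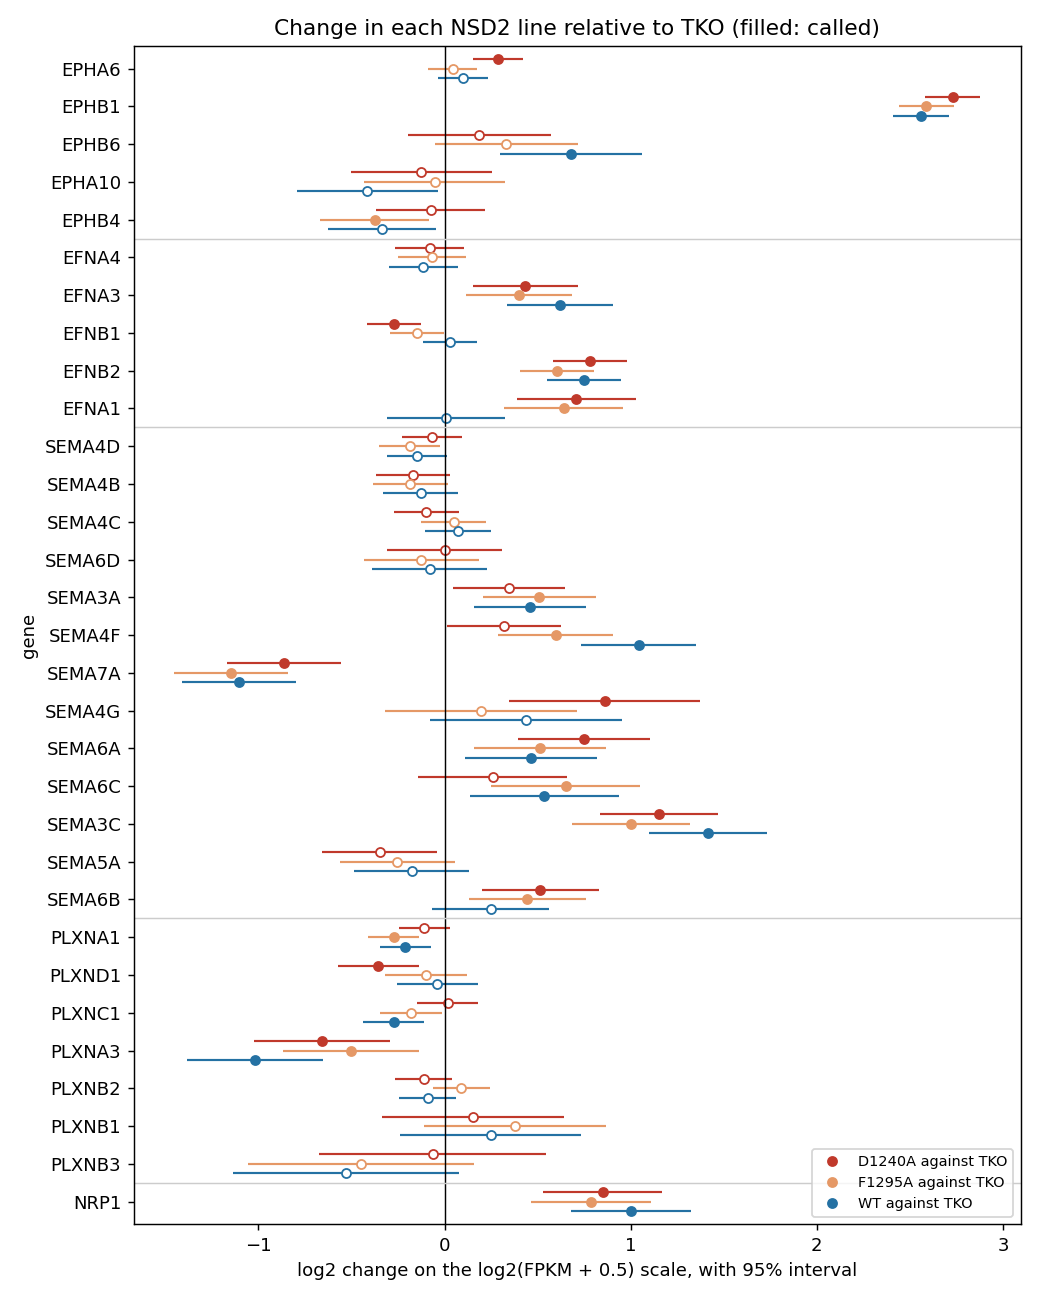
Log2 change of the 31 tested genes relative to TKO in D1240A, F1295A and WT (x axis, points with 95% intervals, filled where called), with genes in rows by family. EPHB1 lies at 2.73, 2.59 and 2.56 in D1240A, F1295A and WT, SEMA7A and PLXNA3 lie at -0.50 or lower in all 3, and EFNA1 is called in both mutant lines and at 0.01 in WT.

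EPHB1 was the Eph receptor that differed most from TKO. It is a receptor kinase for B-class ephrins (ENSG00000154928, chromosome 3, 134597801 to 135260467, GRCh38, GENCODE 29). Its level was 9.18, 9.76 and 9.29 FPKM in D1240A, 8.69, 8.54 and 8.23 in F1295A and 8.20, 8.12 and 8.61 in WT, against 0.861, 1.11 and 1.02 in TKO. All 9 vector libraries lay far above all 3 TKO libraries. The log2 change from TKO was 2.73 in D1240A (95% interval 2.58 to 2.88, adjusted p = 9.55e-11), 2.59 in F1295A (2.44 to 2.74, 1.3e-10) and 2.56 in WT (2.41 to 2.71, 9.41e-11). After rescaling, the 3 D1240A libraries also lay above all F1295A and WT libraries, but the differences of 0.14 from F1295A (adjusted p = 0.242) and 0.17 from WT (0.105) were not called. On the values as deposited, D1240A replicate 2 was at 7.93 FPKM, below every F1295A and WT library. F1295A differed from WT by 0.03 (-0.12 to 0.18). In bulk RNA, fewer cells that express a gene and less of its RNA per cell cannot be told apart. The 250 bases before the RefSeq start of EPHB1, which lies inside the GENCODE span, are shown because this gene had the largest change of the tested genes that were above 0 in every library. They lie on the forward strand of GRCh38.p14 at chr3:134795010-134795259, in lower case with each CG dinucleotide in capitals.
EPHB1: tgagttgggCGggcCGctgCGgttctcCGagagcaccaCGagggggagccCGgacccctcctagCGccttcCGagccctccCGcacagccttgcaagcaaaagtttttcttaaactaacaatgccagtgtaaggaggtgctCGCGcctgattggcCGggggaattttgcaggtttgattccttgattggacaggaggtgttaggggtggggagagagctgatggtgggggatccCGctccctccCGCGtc
The window holds 15 CG dinucleotides, a motif that reads the same on both strands, and 42.7% of the 27305 genes with such a window hold at least as many, while 93.6% hold at least 1.

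**Figure D3:**
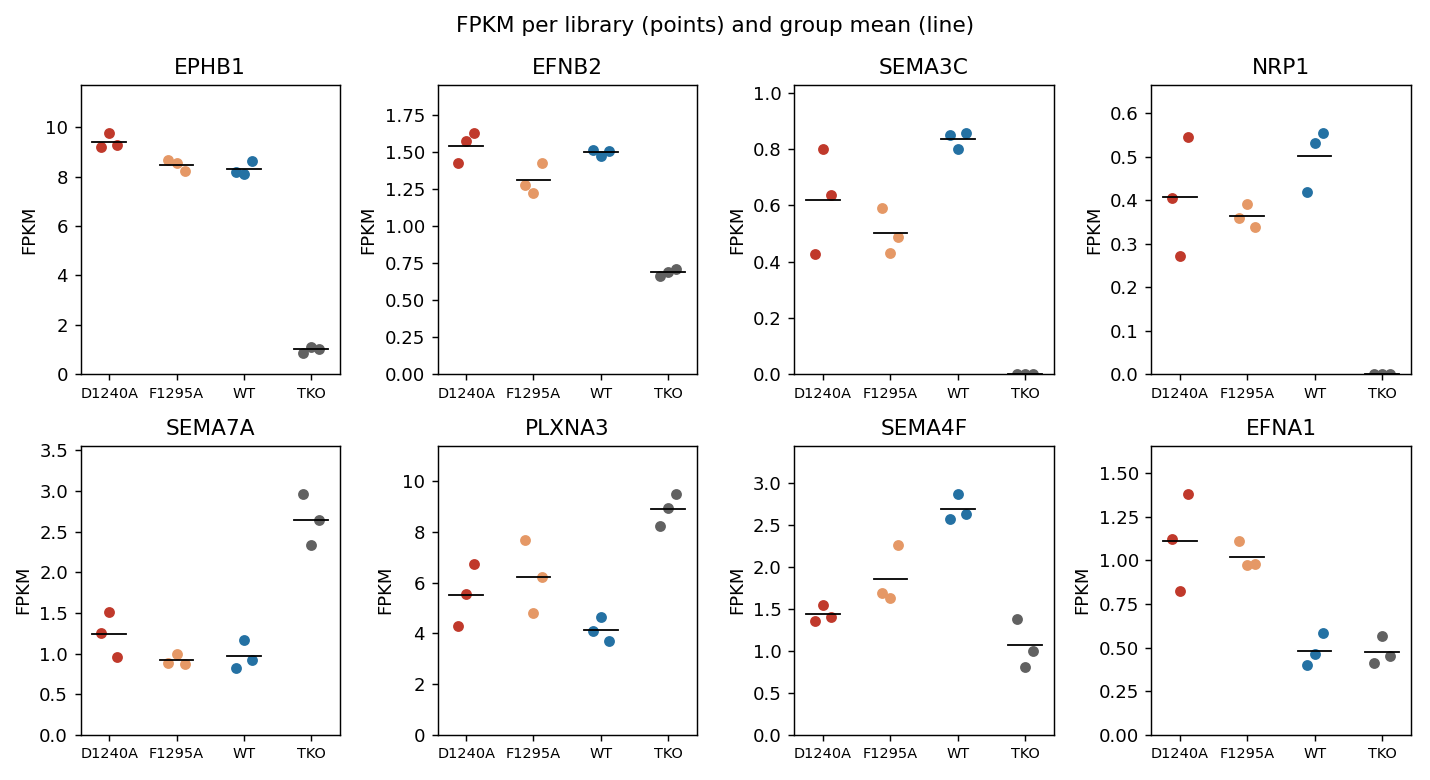
FPKM (y axes, each from 0) in the 3 libraries of D1240A, F1295A, WT and TKO (points, with the group mean as a line) for 8 genes. EPHB1, EFNB2, SEMA3C and NRP1 are higher in all 9 vector libraries than in TKO, SEMA7A and PLXNA3 are lower, SEMA4F is highest in WT, and EFNA1 is higher in both mutant lines than in WT and TKO.

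Other Eph receptors moved less. EPHA6, an A-class receptor, measured 8.40, 8.48 and 8.42 FPKM in D1240A, 7.12, 6.96 and 7.06 in F1295A and 7.54, 7.39 and 7.12 in WT, against 6.37, 6.58 and 7.58 in TKO. D1240A alone stood above all TKO libraries, and EPHA6 rose there by 0.29 (0.15 to 0.42, adjusted p = 0.00242), while the differences of 0.04 in F1295A and 0.10 in WT were not called. The D1240A call was lost on the values as deposited (0.14, adjusted p = 0.226), where D1240A replicate 2 was at 6.89 FPKM and TKO replicate 3 at 7.87. EPHB6, a member without kinase activity, was at 0.456, 0.726 and 0.675 FPKM in D1240A, 0.489, 0.763 and 0.986 in F1295A and 0.908, 0.997 and 1.31 in WT, against 0.564, 0.489 and 0.385 in TKO. Only the WT libraries all lay above TKO, with a rise of 0.68 (0.30 to 1.06, adjusted p = 0.00676), and the differences of the mutant lines from WT were not called (-0.49 for D1240A, adjusted p = 0.0722, and -0.35 for F1295A, 0.361). EPHB4, the main receptor of EFNB2, averaged 0.711 ± 0.0782 FPKM in D1240A, 0.483 ± 0.0745 in F1295A and 0.512 ± 0.108 in WT, against 0.777 ± 0.128 in TKO (SD, n = 3). It fell in F1295A by 0.38 (adjusted p = 0.0374), and this call was lost without F1295A replicate 1 (0.102) or 2 (0.0917) or TKO replicate 1 (0.0786) or 3 (0.145), with no filter (0.0595) and with only the compared groups (0.0621). EPHA10, which lacks kinase activity, was called in no pair and averaged 0.743 ± 0.240 FPKM in D1240A, 0.802 ± 0.203 in F1295A and 0.506 ± 0.0479 in WT, against 0.851 ± 0.212 in TKO.

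Among the ephrins, EFNB2 and EFNA3 rose in all 3 lines, EFNA1 rose in the mutant lines and EFNB1 fell in D1240A. EFNB2, a transmembrane ligand of B-class receptors (ENSG00000125266, chromosome 13, 106489731 to 106535662), measured 1.43, 1.58 and 1.63 FPKM in D1240A, 1.28, 1.22 and 1.42 in F1295A and 1.51, 1.47 and 1.51 in WT, against 0.660, 0.690 and 0.712 in TKO. The 9 vector libraries did not overlap TKO, and the rises were 0.78 (0.58 to 0.98, adjusted p = 2.81e-05), 0.61 (0.41 to 0.81, 0.000191) and 0.75 (0.55 to 0.95, 3.01e-05) in D1240A, F1295A and WT. An antisense gene, AL138689.2, shares 26.2% of the exon bases of EFNB2, and since the strand setting is not given, its reads cannot be told from those of EFNB2. EFNA1, a lipid-anchored ligand of A-class receptors (ENSG00000169242, chromosome 1, 155127460 to 155134857), measured 1.12, 0.825 and 1.38 FPKM in D1240A, 1.11, 0.973 and 0.976 in F1295A and 0.400, 0.464 and 0.584 in WT, against 0.411, 0.566 and 0.453 in TKO. WT and TKO overlapped and both mutant lines lay above them. EFNA1 passed the filter only through the mutant lines, which favours higher values there. The rises from TKO were 0.71 (0.39 to 1.03, adjusted p = 0.00198) in D1240A and 0.64 (0.32 to 0.96, 0.00353) in F1295A, against 0.01 (-0.31 to 0.33, 0.969) in WT.

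EFNA3, of the same class, was at 8.24, 6.10 and 8.09 FPKM in D1240A, 7.70, 7.72 and 6.37 in F1295A and 9.30, 7.81 and 8.46 in WT, against 5.10, 4.75 and 6.34 in TKO. WT and F1295A lay above TKO, and D1240A overlapped it through replicate 2. Its rises were 0.43 (adjusted p = 0.0172), 0.40 (0.0247) and 0.62 (0.00183) in D1240A, F1295A and WT. The D1240A call was lost without D1240A replicate 1 (0.0636) or 3 (0.0618) or TKO replicate 1 (0.0558) or 2 (0.0695), and the F1295A call without F1295A replicate 1 (0.0792) or 2 (0.0800) or TKO replicate 1 (0.0750) or 2 (0.0949). On the values as deposited the D1240A and F1295A calls were lost as well (0.184 and 0.133), and the F1295A call with no filter (0.0617). EFNA4 averaged 11.6 ± 1.21, 11.7 ± 0.279 and 11.3 ± 0.915 FPKM in D1240A, F1295A and WT, against 12.3 ± 1.10 in TKO, and was not called in any pair. A read-through gene, AL691442.1, covers 44.7% of the exon bases of EFNA3 and 15% of those of EFNA4 on the same strand and was listed at 0 to 0.4 FPKM, so the split of reads among the 3 is uncertain. EFNB1, the other tested transmembrane ephrin, measured 3.79, 3.64 and 3.61 FPKM in D1240A, 3.99, 3.77 and 4.44 in F1295A and 4.71, 4.51 and 4.76 in WT, against 4.69, 4.47 and 4.50 in TKO. D1240A lay below all WT and TKO libraries, and EFNB1 fell there by 0.27 from TKO (adjusted p = 0.00564).

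SEMA3C and SEMA7A differed from TKO in opposite directions. SEMA3C is a secreted ligand that binds neuropilins (ENSG00000075223, chromosome 7, 80742538 to 80922359). It was at 0.426, 0.800 and 0.635 FPKM in D1240A, 0.589, 0.431 and 0.488 in F1295A and 0.850, 0.800 and 0.857 in WT, and was listed at 0 in all 3 TKO libraries. Every vector library was above 0, none above 0.857 FPKM, against 0 in TKO. It passed the filter only through the vector lines, which fixes the direction, so its calls carry no weight. With no filter, when every gene above 0 in any library enters, SEMA3C still entered only through the vector lines. The adjusted p from limma in that setting, 7.32e-05 in D1240A, 0.000173 in F1295A and 1.19e-05 in WT, therefore carries no weight either. The fitted log2 changes of SEMA3C depend on the pseudocount and are not given as folds. RefSeq lists 2 starts for SEMA3C, and the table sums over both. The 250 bases before the outer one are shown because this gene was listed at 0 in TKO. They are read 5′ to 3′ on the reverse strand of GRCh38.p14 at chr7:80922390-80922639, with CG in capitals.
SEMA3C outer start: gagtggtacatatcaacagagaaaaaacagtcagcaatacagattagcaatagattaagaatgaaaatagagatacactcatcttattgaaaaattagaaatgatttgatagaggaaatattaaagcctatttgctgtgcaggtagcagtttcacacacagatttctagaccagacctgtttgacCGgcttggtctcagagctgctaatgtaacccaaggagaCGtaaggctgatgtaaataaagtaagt
This window holds 2 CG dinucleotides, and 84.6% of all 27305 windows hold at least as many. The window before the inner start, which overlaps an annotated exon and is not printed, holds 39, a number reached by 2.5% of all windows.

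SEMA7A, a lipid-anchored semaphorin that binds PLXNC1 and integrins (ENSG00000138623, chromosome 15, 74409289 to 74433958), was higher in TKO. Its level was 1.26, 1.51 and 0.953 FPKM in D1240A, 0.878, 0.993 and 0.877 in F1295A and 0.820, 1.17 and 0.915 in WT, against 2.96, 2.33 and 2.64 in TKO. The 9 vector libraries reached at most 1.51 FPKM, and the lowest TKO library was at 2.33 FPKM. SEMA7A changed by -0.86 (adjusted p = 0.000373), -1.15 (3.53e-05) and -1.10 (4.26e-05) on the log2 scale in D1240A, F1295A and WT, and the vector lines overlapped one another, with no pair of them called. The 250 bases before its outer RefSeq start, on the reverse strand of GRCh38.p14 at chr15:74433959-74434208, are shown as the counterpart that fell, with CG in capitals.
SEMA7A: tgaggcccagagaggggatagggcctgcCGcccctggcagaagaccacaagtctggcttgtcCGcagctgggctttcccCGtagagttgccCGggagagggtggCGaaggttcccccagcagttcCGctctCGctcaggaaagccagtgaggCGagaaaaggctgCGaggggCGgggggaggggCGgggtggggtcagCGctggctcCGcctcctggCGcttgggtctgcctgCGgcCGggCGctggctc
This window holds 17 CG dinucleotides, and 38.8% of all windows hold at least as many. SEMA7A too has an inner start, whose window overlaps an annotated exon and is not printed, with 38 CG dinucleotides, a number reached by 3.2% of all windows. CG-rich sequence was taken as an observed to expected ratio of at least 0.6 with a GC content of at least 50%. Over the first listed window of each gene, 30 of the 47 genes of the families with a window were rich (63.8%), against 44.9% of all genes, with 15 of 26 among the tested and 15 of 21 among the untested. Since 17 of the 47 have more than 1 window, 38 (80.9%) were rich in at least 1, against 48.4% of all genes, and the number of windows listed for each gene enters this share. The families are protein-coding by the rule, while all genes with a window were not limited to protein-coding genes, so both shares compare unlike sets. The shares and counts describe the reference sequence, and no binding or methylation was measured here.

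SEMA4F, a transmembrane semaphorin of class 4 (ENSG00000135622, chromosome 2, 74654228 to 74683853), was highest in WT. It measured 1.36, 1.55 and 1.40 FPKM in D1240A, 1.69, 1.64 and 2.26 in F1295A and 2.58, 2.87 and 2.64 in WT, against 1.39, 0.815 and 1.00 in TKO. WT lay above every other library, F1295A above D1240A, and D1240A overlapped TKO. From TKO it rose by 1.04 in WT (0.74 to 1.35, adjusted p = 7.03e-05) and by 0.60 in F1295A (0.29 to 0.91, 0.00434), and the D1240A difference of 0.32 (0.01 to 0.63, 0.0865) was not called. Between the mutant lines the difference of -0.28 (-0.59 to 0.03, adjusted p = 0.267) was not called, nor was that of -0.45 (0.132) between F1295A and WT. SEMA4G, of the same class, was at 1.04, 2.35 and 1.47 FPKM in D1240A, 0.778, 0.582 and 1.07 in F1295A and 1.14, 0.889 and 1.07 in WT, against 0.803, 0.364 and 0.780 in TKO, and rose in D1240A by 0.86 (adjusted p = 0.0106). It shares 22.3% of its exon bases with MRPL43 on the opposite strand, a gene at 47.7 to 67.8 FPKM, so its value is uncertain.

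SEMA3A, a secreted repellent that needs NRP1, measured 1.54, 2.14 and 1.90 FPKM in D1240A, 2.19, 2.24 and 1.95 in F1295A and 1.70, 2.38 and 2.07 in WT, against 1.17, 1.26 and 1.65 in TKO. F1295A and WT lay above TKO, with rises of 0.51 (adjusted p = 0.0101) and 0.46 (0.0158), and D1240A overlapped it. The WT call was lost without WT replicate 2 (0.0683) or TKO replicate 1 (0.0647) or 2 (0.0537). The class 6 semaphorins are transmembrane ligands of A-class plexins. SEMA6A, SEMA6B and SEMA6C were low, while SEMA6D averaged 3.04 FPKM. SEMA6A was at 1.49, 0.800 and 1.09 FPKM in D1240A, 0.858, 0.973 and 0.747 in F1295A and 0.859, 0.671 and 0.925 in WT, against 0.535, 0.460 and 0.366 in TKO. No vector library overlapped TKO, and SEMA6A rose by 0.75 (adjusted p = 0.00268), 0.51 (0.0223) and 0.47 (0.0315) in D1240A, F1295A and WT. The F1295A call was lost without F1295A replicate 1 (0.0515) or 2 (0.0748) or TKO replicate 2 (0.0520) or 3 (0.0810), and the WT call without WT replicate 1 (0.0838) or 3 (0.0997) or TKO replicate 2 (0.0677) or 3 (0.107). On the values as deposited both were lost too (0.0659 and 0.0756), as with no filter (0.0548 and 0.0716).

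SEMA6B was at 0.396, 0.517 and 0.605 FPKM in D1240A, 0.329, 0.582 and 0.468 in F1295A and 0.332, 0.316 and 0.350 in WT, against 0.201, 0.182 and 0.221 in TKO. All vector libraries lay above TKO, and it was called higher in D1240A (0.52, adjusted p = 0.0117) and F1295A (0.44, 0.0243), and the F1295A call was lost without F1295A replicate 3 (0.0576) or TKO replicate 1 (0.0623), 2 (0.0733) or 3 (0.0526) and with only the compared groups (0.0545). SEMA6C was at 0.614, 0.271 and 0.516 FPKM in D1240A, 0.848, 0.712 and 0.707 in F1295A and 0.967, 0.503 and 0.555 in WT, against 0.383, 0.249 and 0.270 in TKO. It was called higher in F1295A (0.65, adjusted p = 0.0120) and WT (0.54, 0.0288), and the WT call was lost without WT replicate 1 (0.128) or TKO replicate 2 (0.0872) or 3 (0.0792), on the values as deposited (0.0532) and with no filter (0.0532). Both genes were tested only through the vector lines. The 5 other tested semaphorins, SEMA4B, SEMA4C, SEMA4D, SEMA5A and SEMA6D, were called in no pair. SEMA4D, the highest, averaged 21.7 ± 1.06, 20.0 ± 2.22 and 20.5 ± 1.07 FPKM in D1240A, F1295A and WT, against 22.7 ± 1.29 in TKO (SD, n = 3), with differences from TKO of -0.07 (-0.23 to 0.09), -0.19 (-0.35 to -0.03, adjusted p = 0.0571) and -0.15 (-0.31 to 0.02).

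None of the 7 tested plexins was called higher than TKO. PLXNA3, a receptor that works with neuropilins for class 3 semaphorins (ENSG00000130827, chromosome X, 154458281 to 154477779), measured 4.30, 5.54 and 6.72 FPKM in D1240A, 7.69, 4.79 and 6.23 in F1295A and 4.07, 4.66 and 3.71 in WT, against 8.23, 8.96 and 9.49 in TKO. All 9 vector libraries lay below TKO, and the mutant lines varied more among replicates than WT. It changed by -0.66 (adjusted p = 0.00704), -0.50 (0.0284) and -1.02 (0.000321) in D1240A, F1295A and WT, and the F1295A call was lost without F1295A replicate 2 (0.117) or 3 (0.0583) or TKO replicate 2 (0.0657) or 3 (0.0853) and with no filter (0.0724). PLXNA1, which carries class 3 and class 6 signals, was at 13.7, 15.6 and 14.2 FPKM in D1240A, 13.0, 12 and 13.6 in F1295A and 13.9, 13.6 and 12.9 in WT, against 16.6, 15.1 and 15.2 in TKO. F1295A and WT lay below TKO, with changes of -0.27 (adjusted p = 0.00387) and -0.21 (0.0155), and the WT call was lost without WT replicate 3 (0.0614) or TKO replicate 1 (0.0651).

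PLXNC1, the receptor of SEMA7A, was at 7.68, 8.62 and 8.84 FPKM in D1240A, 6.92, 7.68 and 7.13 in F1295A and 6.73, 6.12 and 7.48 in WT, against 8.34, 8.11 and 8.35 in TKO. WT and F1295A lay below TKO, and the fall was called in WT (-0.27, adjusted p = 0.00982). PLXND1, the receptor of SEMA3E, was at 11.6, 9.67 and 11.8 FPKM in D1240A, 14.1, 14.1 and 11.7 in F1295A and 12.6, 13.3 and 15.7 in WT, against 14.6, 13.4 and 14.6 in TKO, and fell in D1240A by 0.36 (adjusted p = 0.0122), the one line below all TKO libraries. The 3 B-class plexins, receptors of class 4 and 5 semaphorins, were called in no pair. PLXNB2 averaged 4.61 ± 0.101, 5.38 ± 0.363 and 4.69 ± 0.385 FPKM in D1240A, F1295A and WT, against 5.02 ± 0.146 in TKO (SD, n = 3). PLXNB1, the receptor of SEMA4D, averaged 1.24 ± 0.318, 1.54 ± 0.325 and 1.41 ± 0.616 FPKM, against 1.06 ± 0.229, and PLXNB3, which shares 20.4% of its exon bases with SRPK3, 0.672 ± 0.367, 0.366 ± 0.0305 and 0.334 ± 0.209 FPKM, against 0.717 ± 0.355.

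NRP1, the co-receptor of SEMA3A and SEMA3C and also a receptor of VEGF (ENSG00000099250, chromosome 10, 33177492 to 33336262), was at 0.406, 0.271 and 0.546 FPKM in D1240A, 0.359, 0.391 and 0.339 in F1295A and 0.420, 0.533 and 0.555 in WT, and was listed at 0 in all 3 TKO libraries. The 9 vector libraries were all above 0, none above 0.555 FPKM, against 0 in TKO. NRP1 too passed the filter only through the vector lines, and with no filter it still entered only through them. The adjusted p from limma with no filter, 0.00023 in D1240A, 0.000352 in F1295A and 5.44e-05 in WT, therefore carries no weight. SEMA3C and NRP1 thus shared the pattern of 0 in TKO and low values in every vector library. EPHA3, which did not pass the filter, had the same pattern. The share of all genes with this pattern is not given here, so it is no result about the families. A link between these genes was not tested. NRP2, the other neuropilin, did not pass the filter.

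The 22 untested genes were 9 Eph receptors, 3 ephrins, 7 semaphorins, 2 plexins and 1 neuropilin: EPHA1, EPHA2, EPHA3, EPHA4, EPHA5, EPHA7, EPHA8, EPHB2, EPHB3, EFNA2, EFNA5, EFNB3, SEMA3B, SEMA3D, SEMA3E, SEMA3F, SEMA3G, SEMA4A, SEMA5B, PLXNA2, PLXNA4 and NRP2. Of these, 19 were below 0.5 FPKM in every library, and EPHA8, EFNA2 and PLXNA4 were listed at 0 in all 12. When no filter was applied, 50 of the 53 genes were tested among 29605. EPHA3, PLXNA2, NRP2, EFNA5 and SEMA3F were then called against TKO. The share of all genes called in that setting is not given here, so these calls are no result about the families. EPHA3, an A-class receptor, measured 0.129, 0.271 and 0.179 FPKM in D1240A, 0.240, 0.191 and 0.209 in F1295A and 0.195, 0.227 and 0.282 in WT, and was listed at 0 in TKO (adjusted p = 0.00123, 0.000593 and 0.000295 in D1240A, F1295A and WT). With TKO at 0, EPHA3 entered only through the vector lines, so its calls carry no weight. PLXNA2, a receptor of SEMA6A, measured 0.178, 0.431 and 0.159 FPKM in D1240A, 0.200, 0.211 and 0.319 in F1295A and 0.752, 0.474 and 0.750 in WT, against 0.115, 0.106 and 0.212 in TKO. It was higher in WT than in TKO (0.84, adjusted p = 0.00223) and lower in D1240A than in WT (-0.62, 0.0359). NRP2 measured 0.139, 0.0985 and 0.367 FPKM in D1240A, 0.230, 0.1 and 0.0498 in F1295A and 0, 0.0494 and 0.0389 in WT, against 0.861, 0.221 and 0.366 in TKO, and was lower in WT (-0.84, adjusted p = 0.0185). EFNA5, a lipid-anchored ephrin, was higher in D1240A (0.62, adjusted p = 0.0285) and F1295A (0.58, 0.0388), and SEMA3F, a secreted semaphorin, in D1240A (0.32, 0.0248). All of these genes are near or below the filter, and their fragment numbers are unknown.

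The comparison of the mutant lines with WT asks whether these genes differ between lines with and without a substitution in the NSD2 vector. NSD2 RNA differed as well, with log2 changes from WT of 0.39 in D1240A and -0.22 in F1295A. The substitution and the level of NSD2 therefore cannot be told apart. In D1240A, 2 of the 31 were called higher (6.5%) and 3 lower (9.7%), where 8.22% and 10.9% of all tested genes were. F1295A had 1 higher (3.2%) and 0 lower, where 0.896% and 1.81% were. D1240A against F1295A had 1 higher (3.2%) and 0 lower, where 3% and 3.09% were. Those shares too are near the shares of all genes or rest on 1 gene, and the F1295A and D1240A comparisons with WT share the 3 WT libraries.

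**Figure D4:**
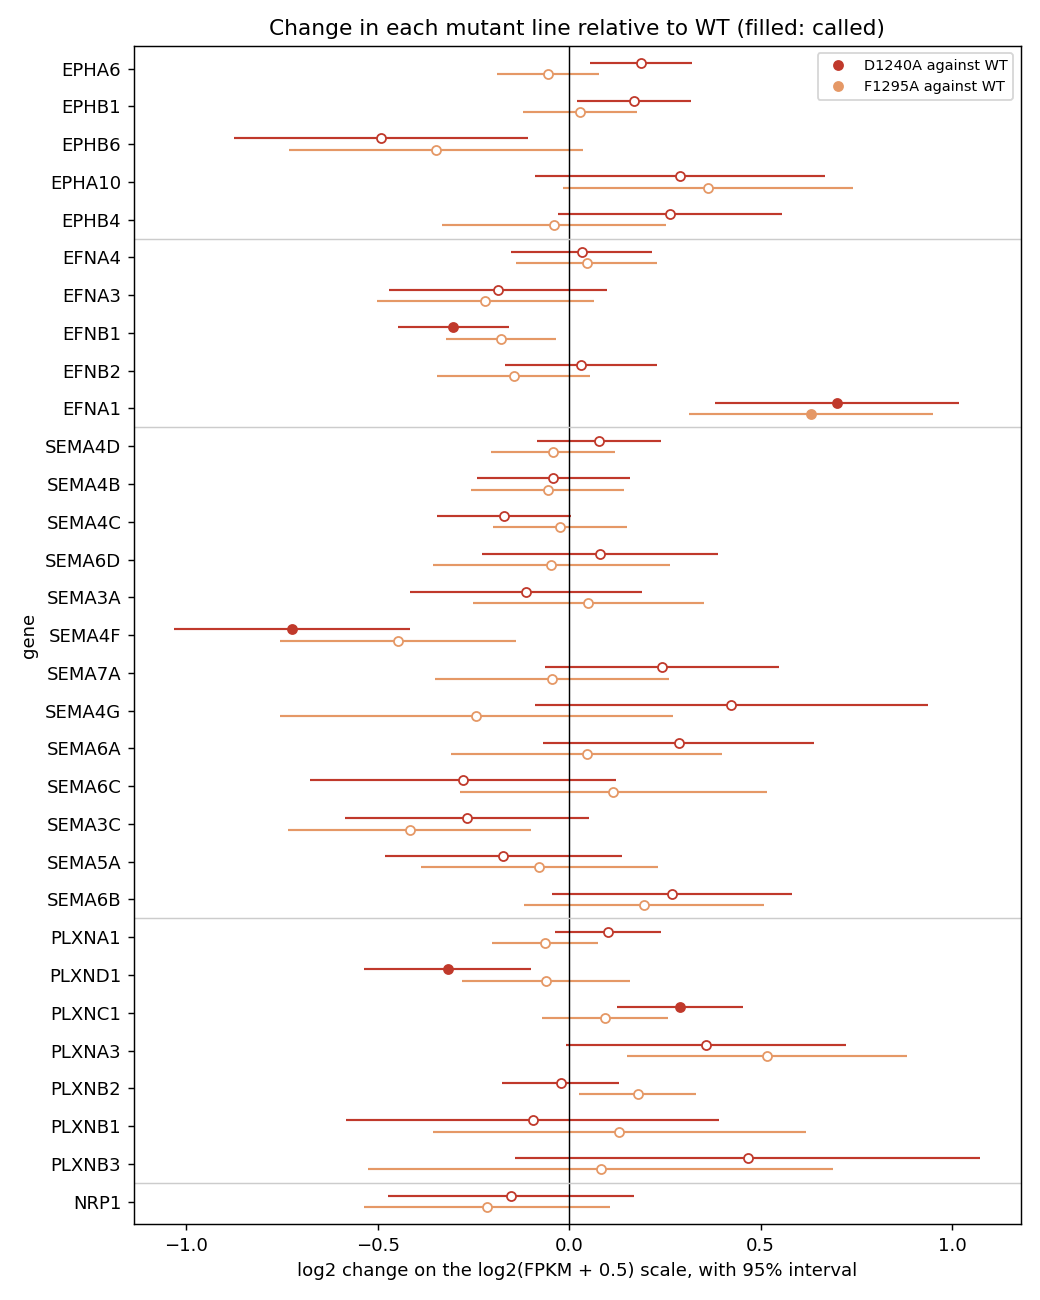
Log2 change of the 31 tested genes relative to WT in D1240A and F1295A (x axis, points with 95% intervals, filled where called), with genes in rows by family. EFNA1 is the one gene called in both lines, at 0.70 in D1240A and 0.63 in F1295A, and SEMA4F has the lowest called value, -0.72 in D1240A.

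EFNA1 was higher in D1240A than in WT by 0.70 (0.38 to 1.02, adjusted p = 0.00638) and in F1295A than in WT by 0.63 (0.31 to 0.95, 0.0439), with no overlap in either pair. EFNA1 passed the filter only through the mutant lines, which favours higher values there. With no filter, limma gave it an adjusted p of 0.0173 in D1240A and 0.0923 in F1295A against WT. The D1240A call held in all 23 alternatives. The F1295A call was lost in 10 of the 12 fits that left out 1 library, those without any 1 of the F1295A, WT or TKO libraries or without D1240A replicate 1, with adjusted p of 0.0558 to 0.161. SEMA4F was lower in D1240A than in WT (-0.72, -1.03 to -0.42, adjusted p = 0.00437), and EFNB1 as well (-0.30, -0.45 to -0.16, 0.00843), and both calls held in all 23 alternatives. In F1295A the same genes differed from WT by -0.45 (-0.75 to -0.14, adjusted p = 0.132) and -0.18 (-0.32 to -0.03, 0.200), not called, with the F1295A libraries below all WT libraries. PLXNC1 was higher in D1240A than in WT by 0.29 (0.12 to 0.45, adjusted p = 0.0199), and this was lost on the values as deposited (0.17, 0.260) and without WT replicate 1 (0.0618) or 2 (0.0789) or D1240A replicate 2 (0.0582) or 3 (0.0728). PLXND1 was lower in D1240A (-0.32, -0.54 to -0.10, adjusted p = 0.0458), and the call was lost in 10 of 12 fits that left out 1 library, all but those without WT replicate 1 or F1295A replicate 3 (0.0512 to 0.150). EPHA6 was higher in D1240A than in F1295A (0.24, 0.11 to 0.38, adjusted p = 0.0400), lost in 10 of 12 such fits, all but those without TKO replicate 1 or 3 (0.0544 to 0.118).

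For the genes not called, the intervals say how large a difference could be. In D1240A against WT, 14 of 26 had a 95% interval within 0.5 of 0 on the log2 scale, in F1295A against WT 18 of 30, and in D1240A against F1295A 20 of 30. SEMA7A, for example, differed by 0.24 (-0.06 to 0.55) in D1240A and by -0.05 (-0.35 to 0.26) in F1295A from WT. SEMA3C, by contrast, had an interval of -0.73 to -0.10 in F1295A against WT (-0.42, adjusted p = 0.173), with the 3 F1295A libraries below all 3 WT libraries. PLXNA3 was 0.36 (-0.01 to 0.72) higher in D1240A and 0.52 (0.15 to 0.88) higher in F1295A than in WT, not called in either (adjusted p = 0.162 and 0.140).

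Several changes against TKO went with those of the genes around them on the chromosome. For each tested gene the median log2 change of the 50 nearest tested genes was taken. In each comparison with TKO the neighbours' median lay beyond 0.3 in size for EFNB1, PLXNA3 and PLXNB3 on X. The same held for EPHB4 on 7, SEMA4G on 10 and EFNB2 on 13. For the other 25 it lay between -0.27 and 0.11. The share of all tested genes with such a median is not given here, so this list is no result about the families. For EFNB2 the neighbours' median was 0.56 in D1240A, 0.52 in F1295A and 0.55 in WT, and with it removed the change of EFNB2 was 0.23 (adjusted p = 0.0649), 0.09 (0.456) and 0.20 (0.0897), called in no line. For PLXNA3 the neighbours stood at -0.56, -0.53 and -0.52, and what remained was -0.10 (0.685), 0.03 (0.918) and -0.50 (0.0278), called in WT. EFNB1, whose neighbours stood at -0.40, -0.39 and -0.41, was then 0.13 (0.218), 0.25 (0.0221) and 0.44 (0.000546), higher than TKO in F1295A and WT. EPHB4 in F1295A was then 0.05 (0.802) and SEMA4G in D1240A 0.43 (0.17), neither called. SEMA3A and SEMA6A in WT, whose neighbours had moved less, were at 0.37 (0.0517) and 0.39 (0.0587). EPHB6 on 7, with neighbours at -0.26, -0.27 and -0.24, was 0.45 (0.0581), 0.60 (0.0157) and 0.92 (0.00101). SEMA4D was then called lower in F1295A (-0.21, 0.0474) and WT (-0.22, 0.0408), and stood at -0.13 (0.214) in D1240A. EPHB1, SEMA3C, SEMA7A, NRP1 and, in F1295A and WT, SEMA4F kept their calls. Between the vector lines the neighbours' medians lay between -0.05 and 0.05. Removing them left EFNA1 in F1295A against WT at 0.61 (0.0618), PLXND1 in D1240A against WT at -0.31 (0.0713) and EPHA6 in D1240A against F1295A at 0.21 (0.0826), no longer called. What gives the neighbours their shift was not tested.

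**Figure D5:**
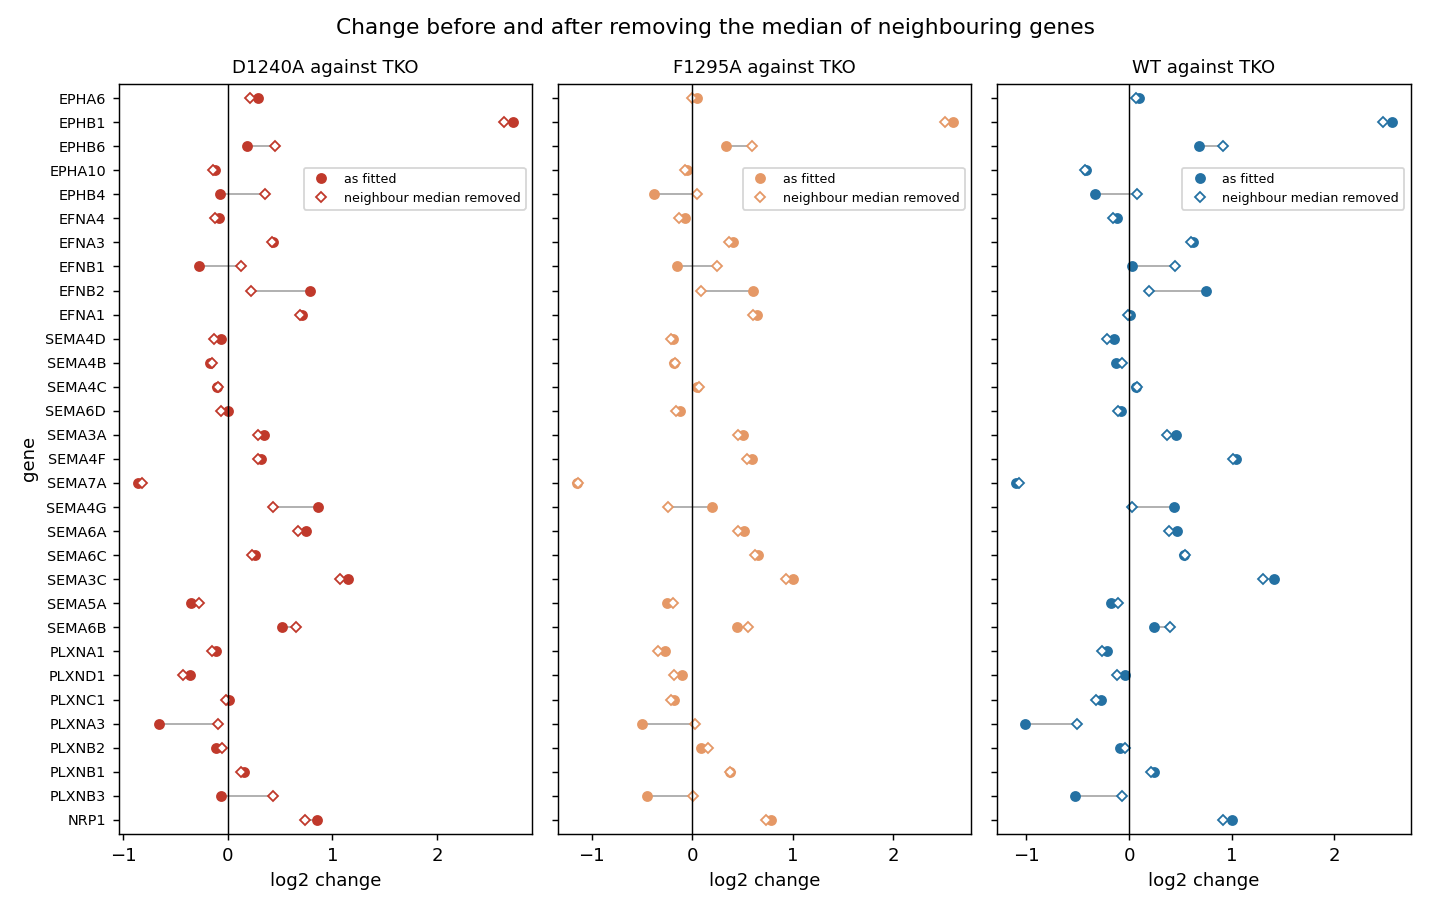
Log2 change of the 31 tested genes relative to TKO as fitted (filled circles) and after the median of 50 neighbouring tested genes was removed (open diamonds), in D1240A, F1295A and WT (panels). EFNB2, PLXNA3, PLXNB3, EFNB1, EPHB4 and SEMA4G are displaced by more than 0.3, while EPHB1, SEMA3C and SEMA7A barely move.

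Lists of other pathway genes place the receptors and ligands in their context. Downstream genes of Eph signalling (50 genes, 41 tested) were called higher and lower in 16 and 9 in D1240A, 14 and 10 in F1295A and 18 and 10 in WT against TKO, with medians of 0.11, 0.06 and 0.10. As shares these were 39.0% and 22.0%, 34.1% and 24.4%, and 43.9% and 24.4%, where 23.3% and 21.2%, 23.9% and 21.8%, and 25.9% and 23.9% of all tested genes were called. GRB10, an adaptor that binds receptor kinases, led the list: it averaged 8.27 ± 0.25 FPKM in D1240A, 8.91 ± 0.441 in F1295A and 10.6 ± 0.359 in WT, against 1.62 ± 0.305 in TKO (SD, n = 3), and rose by 2.06 (adjusted p = 8.42e-09), 2.16 (4.75e-09) and 2.40 (1.52e-09). ELMO2, a scaffold of Rac activation, had changes of -0.42, -0.59 and -0.60, INPPL1, a lipid phosphatase bound by EPHA2, rose by 0.64, 0.65 and 0.70, and SDCBP, a scaffold that binds B-class ephrins, rose by 0.51, 0.46 and 0.54 in D1240A, F1295A and WT.

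Downstream genes and partners of semaphorin signalling (54 genes, 46 tested) were higher and lower in 17 and 9 in D1240A, 18 and 12 in F1295A and 19 and 14 in WT against TKO, with medians of 0.09, 0.06 and 0.02. The shares were 37.0% and 19.6%, 39.1% and 26.1%, and 41.3% and 30.4%, beside the same all-gene shares. RRAS2, a Ras-group GTPase, averaged 1.65 ± 0.281 FPKM in D1240A, 2.73 ± 0.455 in F1295A and 4.68 ± 0.185 in WT, against 0.134 ± 0.0445 in TKO, with changes of 1.76, 2.34 and 3.03. PAK1, a kinase driven by Rac, averaged 2.04 ± 0.381, 2.80 ± 0.257 and 4.31 ± 0.582 FPKM, against 0.154 ± 0.0960, with changes of 1.96, 2.34 and 2.88. L1CAM, an adhesion molecule that joins NRP1 in the SEMA3A receptor, averaged 8.65 ± 0.396, 4.72 ± 0.556 and 3.33 ± 0.581 FPKM, against 16.7 ± 0.419, with changes of -0.91, -1.72 and -2.18, while NRCAM, its relative, had changes of -0.61, -0.97 and -1.18. These 4 genes were chosen for their change in WT against TKO, which favours a WT mean far from TKO, so their order over the lines is no result. Of the 46, 6 were higher and 10 lower in D1240A than in WT (13.0% and 21.7%, where 8.22% and 10.9% of all tested genes were), and 2 and 4 in F1295A than in WT (4.3% and 8.7%, against 0.896% and 1.81%).

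Netrin, Slit and repulsive guidance genes (39 genes, 20 tested), the other guidance families, were higher and lower in 10 and 3 in D1240A, 9 and 3 in F1295A and 12 and 3 in WT against TKO, with medians of 0.46, 0.23 and 0.50. The shares were 50% and 15%, 45.0% and 15%, and 60.0% and 15%, beside 23.3% and 21.2%, 23.9% and 21.8%, and 25.9% and 23.9% of all tested genes. ABLIM1, an actin-binding protein, averaged 32.8 ± 1.95 FPKM in D1240A, 33.8 ± 2.52 in F1295A and 37.6 ± 0.386 in WT, against 12.8 ± 0.243 in TKO, and SLIT2, a secreted repellent that binds ROBO receptors, 1.38 ± 0.182, 1.70 ± 0.11 and 1.97 ± 0.172 FPKM, against 0.106 ± 0.0190. EVL and ENAH, which extend actin filaments, rose by 0.63, 0.82 and 1.11 and by 0.44, 0.72 and 1.76. ABLIM1, SLIT2, EVL and ENAH too were chosen for their change in WT against TKO, so their order over the lines is no result. In D1240A against WT 0 of the 20 were higher and 5 lower (25%, where 10.9% of all tested genes were lower), and in F1295A against WT 0 and 2 (10%, against 1.81%). All of these lists were put together with earlier results of these data known, so their counts describe the genes and are no test of a pathway.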

How the data were processed

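Poly(A) RNA-seq of 12 libraries, 4 groups of 3 replicates labelled biological, was read from 1 deposited table of 60504 features. Its unit was inferred from the values as FPKM, which the authors deposited. Per the submitters' processing notes, Trimmomatic 0.36, FastQC 0.11.4, STAR 2.7.9a, RSEM 1.3.1, DESeq2 and GRCh38 were used. The strand setting and the gene annotation's release were not given in the sources used here. Total depth is unknown, and only relative depth could be read from the worth of 1 fragment.

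From the deposited FPKM, 7089 structural RNA features were left out and libraries were rescaled by the mean log2 difference over genes averaging 1 FPKM or more, trimmed by 30%. Genes at 0.5 FPKM or more in at least 3 libraries were tested as log2(FPKM + 0.5) with limma 3.58.1 (R 4.3.3) in 1 model of 4 groups, and p-values of 14391 genes were adjusted by the Benjamini-Hochberg method within each of 6 comparisons, with a threshold of 0.05. These p-values set the difference between groups against the spread between replicates, estimated over all 12 libraries. How far separately made lines with the same vector differ was not tested. The fit was also run on simulated data, whose outcome is not given here. The text names every tested gene of the families, the 4 most strongly changed genes of each list of pathway genes in WT against TKO, and untested genes called with no filter. The gene families and the 143 genes of the lists were chosen with earlier results of these data known.

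In all, 23 alternatives were run: scaling, filters, pseudocounts of 0.1 and 1, the structural features kept, only the compared groups, the replicate block, library weights, the median of 50 neighbouring genes removed, and each of 12 libraries left out. Positions came from GENCODE 29, which matched 56996 features, and sequences from RefSeq GRCh38.p14, which matched 47 of the 53 genes. Python 3.11.15 with numpy 2.4.6, pandas 2.3.3 and matplotlib 3.10.9 was used for tables and figures.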

Additional observations from a re-analysis of the deposited data

Results flagged for a closer look

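Among the genes of the 2 families, 7 differences between lines that express different forms of NSD2 passed limma's test at a Benjamini-Hochberg adjusted p under 0.05. Each is a direct test of the difference between 2 lines, with 3 libraries in each. Of all tested genes 8.22% were called higher and 10.9% lower in D1240A against WT, 0.896% and 1.81% in F1295A against WT, and 3% and 3.09% in D1240A against F1295A, so a few calls among 31 genes are near the background. EFNA1, a ligand of A-class Eph receptors, was higher by 0.70 in D1240A than in WT and by 0.63 in F1295A than in WT. It passed the filter only through these mutant lines. SEMA4F was at -0.72, PLXND1 at -0.32 and EFNB1 at -0.30 in D1240A against WT, and PLXNC1 at 0.29. EPHA6 was higher by 0.24 in D1240A than in F1295A. Of 23 alternatives, 17 lost the call of PLXND1, 16 that of EFNA1 in F1295A, 16 that of EPHA6 and 6 that of PLXNC1, while the D1240A calls of EFNA1, SEMA4F and EFNB1 held in all. NSD2 itself was higher in D1240A than in WT by 0.39 (adjusted p = 5.29e-05) and lower in F1295A than in WT by -0.22 (0.0138), and its part in these differences was not tested.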

How the results depend on the processing

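Over 23 alternatives, 4164 values of single genes were recomputed, of which 4015 kept direction and call, 112 lost a call, 33 gained one and 4 reversed. Of 50 calls, 29 held in each alternative that tested the gene, 19 of them in all 23 and 10 in the 18 to 22 in which the gene passed the filter. EPHB1 against TKO ranged over 2.38 to 3.12 in D1240A, 2.25 to 2.97 in F1295A and 2.22 to 2.94 in WT. Filtering at 1 FPKM, which tests 22 of the genes, gave 9 calls in F1295A against TKO and 9 in WT against TKO, where the filter at 0.5 FPKM gave 15 and 14. With only the compared groups, D1240A against WT had 3 calls in place of 5. F1295A against WT had 0 calls on values as deposited, with no filter, with the filter at 1 FPKM, with only the compared groups, under the replicate block and with the neighbour median removed. D1240A against F1295A had 0 on values as deposited, with no filter, with only the compared groups, under the replicate block, with library weights and with the neighbour median removed. The cause was not tested. Leaving out 1 library gave 11 to 15 calls in D1240A against TKO, 10 to 15 in F1295A against TKO, 11 to 15 in WT against TKO, 3 to 5 in D1240A against WT, 0 to 1 in F1295A against WT and 0 to 1 in D1240A against F1295A. With the neighbour median removed, EFNB1 in D1240A (0.13) and F1295A (0.25), EPHB4 in F1295A (0.0497) and PLXNA3 in F1295A (0.027) against TKO reversed.

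Deviations of 18 same-numbered pairs correlated weakly, at -0.05 to 0.09, none over 0.1, and those of 36 other pairs at -0.11 to 0.08. D1240A and TKO libraries of the same number correlated at 0.058, 0.062 and 0.071, and those of different numbers at -0.049 to -0.009. Some same-numbered pairs were negative, such as WT and D1240A replicate 2 at -0.053. Whether the replicate numbers mark a shared batch was not tested. Under the replicate block 15, 15 and 15 genes were called in D1240A, F1295A and WT against TKO, 4 in D1240A against WT, 0 in F1295A against WT and 0 in D1240A against F1295A. Total depth and the fragment numbers behind single genes are unknown.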
